A study of Homo sapiens with 4 samples.

Results

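The genes described are those whose products carry proteins into mitochondria and build the mitochondrial ribosome. They were taken by name, as every row of the coding gene table whose symbol starts with TIMM, TOMM, MRPL or MRPS followed by a digit. This gave 102 of 19739 genes, of which 24 are TIMM or TOMM genes, 49 are MRPL genes and 29 are MRPS genes. The naming rule used no measured value, but it was chosen with earlier results of these data known.

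RNA sequencing was done on 2 established human cell lines that the labels call hepatocellular carcinoma lines, HepG2 and Huh7. The treated HepG2 and treated Huh7 cells received, for 24 h, low-frequency ultrasound with RSL3@O2-ICG NBS, RSL3 being a compound known to trigger ferroptosis, a death driven by lipid peroxides. The untreated cells of each line had no treatment, and all 4 cultures grew in the same serum-containing medium. Each of the 4 groups is 1 library from 1 culture, so a difference within a line has no replicate check.

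Most mitochondrial proteins are made in the cytosol and threaded through the TOM complex of the outer membrane, after which the TIM23 complex passes proteins with a cleavable leader and the small TIM proteins escort carriers to the TIM22 complex. The mitochondrial ribosome makes the few respiratory chain subunits that the mitochondrial genome encodes, and all of its proteins are nuclear-encoded and imported by these same machines. Many genes of both machines are known targets of the transcription factors NRF1, GABPA and YY1.

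The libraries rest on similar depths, and those labelled HepG2 lacked hepatocyte markers. The depth inferred from the smallest FPKM steps was 22900000 to 26400000 fragments, so that a transcript of 1 kb at 1 FPKM (fragments per kilobase of transcript, scaled to library size) stands for 23 to 26 fragments. The 8 hepatocyte markers examined, albumin and alpha-fetoprotein among them, were each under 1 FPKM in both libraries labelled HepG2, with a summed level of 0.429 FPKM in the treated and 0.528 FPKM in the untreated library. In Huh7 all 8 were above 1 FPKM, with sums of 1210 FPKM in treated and 1599 FPKM in untreated cells. The first pair is therefore called the libraries labelled HepG2 throughout. The position listed for each of the 102 genes overlaps its gene in GENCODE 29, so coordinates are GRCh38.

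Promoter sequences are shown for 6 of the genes past the fold cut-offs. TOMM6, TOMM22 and TIMM8A stood at least 2-fold lower in treated than in untreated libraries labelled HepG2, and MRPL53 did so in Huh7. TIMM50 and MRPL54 stood at least 1.5-fold lower in both lines. MRPS2, MRPL10 and MRPL51 also met these cut-offs and are not shown. Each run is the RefSeq promoter of build GRCh38.p14, 250 bases before to 50 bases after the RefSeq start. It is written 5′ to 3′ on the strand of the gene. The RefSeq start can differ from the start of the gene's listed position, as in TOMM6 and TIMM50. Capitals mark the letters CCGGAAG, the core of the GABPA motif, or their reverse complement CTTCCGG, and in TIMM50 the YY1 letters AAGATGGCG.
TOMM6, chr6:41787444-41787743, plus strand: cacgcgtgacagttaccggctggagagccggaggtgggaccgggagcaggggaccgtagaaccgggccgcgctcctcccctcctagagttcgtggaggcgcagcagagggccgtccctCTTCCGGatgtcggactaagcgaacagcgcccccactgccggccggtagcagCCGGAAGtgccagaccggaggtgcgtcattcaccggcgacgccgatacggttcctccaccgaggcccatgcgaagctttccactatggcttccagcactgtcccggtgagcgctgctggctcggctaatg
TOMM22, chr22:38681707-38682006, plus strand: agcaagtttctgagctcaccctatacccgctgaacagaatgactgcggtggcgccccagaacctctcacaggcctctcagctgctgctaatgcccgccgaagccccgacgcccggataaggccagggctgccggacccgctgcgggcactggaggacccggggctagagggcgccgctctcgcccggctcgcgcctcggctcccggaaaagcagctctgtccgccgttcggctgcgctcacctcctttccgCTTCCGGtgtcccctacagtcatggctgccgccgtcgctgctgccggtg
TIMM8A, chrX:101348693-101348992, minus strand: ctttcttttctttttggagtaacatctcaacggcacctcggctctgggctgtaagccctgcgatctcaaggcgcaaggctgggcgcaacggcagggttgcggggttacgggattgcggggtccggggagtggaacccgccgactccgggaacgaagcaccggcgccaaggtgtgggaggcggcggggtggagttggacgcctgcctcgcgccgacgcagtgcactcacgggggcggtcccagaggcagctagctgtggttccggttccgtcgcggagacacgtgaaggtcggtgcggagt
MRPL53, chr2:74472631-74472930, minus strand: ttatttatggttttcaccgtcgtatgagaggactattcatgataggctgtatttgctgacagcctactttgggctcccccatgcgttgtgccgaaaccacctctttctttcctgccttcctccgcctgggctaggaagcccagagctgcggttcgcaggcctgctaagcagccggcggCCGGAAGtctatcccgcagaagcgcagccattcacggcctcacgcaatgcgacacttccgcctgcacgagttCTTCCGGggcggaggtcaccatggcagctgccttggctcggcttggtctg
TIMM50, chr19:39480588-39480887, plus strand: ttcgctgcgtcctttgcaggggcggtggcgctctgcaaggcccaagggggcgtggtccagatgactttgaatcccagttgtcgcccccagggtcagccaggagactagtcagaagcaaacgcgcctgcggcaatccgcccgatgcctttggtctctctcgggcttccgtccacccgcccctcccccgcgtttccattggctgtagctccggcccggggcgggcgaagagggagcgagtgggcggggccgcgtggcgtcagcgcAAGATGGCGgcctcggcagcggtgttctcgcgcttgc
MRPL54, chr19:3762432-3762731, plus strand: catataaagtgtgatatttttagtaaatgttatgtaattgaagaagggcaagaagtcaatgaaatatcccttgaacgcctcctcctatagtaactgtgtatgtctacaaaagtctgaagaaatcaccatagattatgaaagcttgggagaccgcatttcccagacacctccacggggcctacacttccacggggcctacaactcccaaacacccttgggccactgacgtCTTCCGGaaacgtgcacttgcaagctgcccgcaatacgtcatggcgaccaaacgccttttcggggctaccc
TOMM6 and MRPL53 each hold the GABPA letters on both strands, and TOMM22 and MRPL54 hold them once. The TIMM8A window holds none of the 3 motifs searched. Among the genes not shown, MRPS2 also held none of the 3 motifs, and MRPL51 held the GABPA letters.

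A RefSeq promoter was found for 91 of the 102 genes. MRPL10, MRPL13, MRPL15, MRPL2, MRPL21, MRPL23, MRPL35, MRPS28, MRPS36, TIMM8B and TOMM5 had no entry in the promoter table used. Both strands were searched for GCGCA then any base then GCGC (NRF1), CCGGAAG (GABPA) and AAGATGGCG (YY1). The GABPA letters stood in 41 of the 91 genes (45.1%), against 16.8% of the 14868 coding genes searched in windows of the same length. The YY1 letters stood in 15 of the 91 (16.5%), against 3.32% of coding genes, and the NRF1 letters in 13 (14.3%), against 9.73%. At least 1 of the 3 motifs was found in 64.8% of the import and mitoribosomal genes and in 26.3% of coding genes, while the mean GC content of their promoters was 61.4% and 61.1%. GABPA and YY1 letters stood together in 4 genes and shared bases in 0. A match is a run of letters, not a measured binding site.

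**Figure D1:**
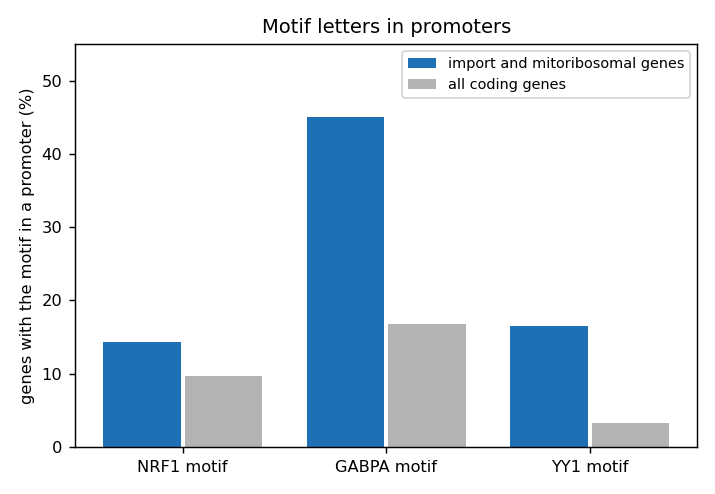
Share of genes, in percent, whose RefSeq promoter window holds the letters of the NRF1, GABPA or YY1 motif, for 91 import and mitoribosomal genes (blue) and 14868 coding genes (grey). The blue bar is the taller of each pair, at 45.1% against 16.8% for GABPA.

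Treated cells of both lines gave a smaller share of their messages to these genes than untreated cells. In the libraries labelled HepG2 the 102 genes summed to 3435 FPKM in treated and 4158 FPKM in untreated cells, which is 1.01% and 1.18% of all coding FPKM. In Huh7 the sums were 3618 FPKM in treated and 4173 FPKM in untreated cells, or 0.958% and 1.13%. Of the 102 genes, 101 reached 1 FPKM in at least 1 library of each line. The exception is TOMM20L, a paralogue of the import receptor TOMM20, which was listed between 0.288 and 0.716 FPKM in the 4 libraries. Because the RNA came from whole cultures, fewer cells that express a gene and less of its RNA per cell cannot be told apart.

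The change was measured as the log2 ratio of treated to untreated FPKM, with 1 FPKM added to each, which understates the change of low genes. In the libraries labelled HepG2 the median ratio of the 101 genes was −0.29, while that of the 11843 coding genes measured was 0.09. A ratio below 0 was found for 80 of the 101 genes (79.2%), against 43.1% of coding genes. At least 2-fold lower in treated cells were 4 of the 101 genes, namely TOMM6, MRPS2, TIMM8A and TOMM22, where 2.43% of coding genes were called so. At least 2-fold higher were 0 of the 101, where the background was 6.7%. At 1.5-fold, 16 were lower and 1 was higher, beside 8.76% and 19.2% of coding genes.

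In Huh7 fewer of these genes were past 1.5-fold and their median lay nearer 0. Markers of other cell types also differed: 6 fibroblast markers summed to 10.2 FPKM in treated and 38.01 FPKM in untreated Huh7 cells, mostly LUM, and 6 blood markers to 4.07 and 19.3 FPKM, mostly CD14, with 2 of 6 at 1 FPKM or more in each list in both Huh7 libraries. The pan-leukocyte marker PTPRC was listed at 0 in all 4 libraries, and the part of these markers in the ratios was not tested. The median ratio of the 101 genes was −0.14, against 0.10 for the 11945 coding genes measured, and 70 genes (69.3%) were below 0, against 41.2% of coding genes. At least 2-fold lower in treated Huh7 cells were 2 of the 101, MRPL53 and MRPL10, beside a background of 2.19%, and 0 were at least 2-fold higher, beside 3.88%. At 1.5-fold, 12 were lower and 1 was higher, beside 7.63% and 15.4%. Dividing each library by a median-of-ratios size factor moved the median of all coding genes in Huh7 by −0.10, to −0.0024, and the median of the 101 genes to −0.26. The gap between the 2 medians was then −0.25, and all coding genes split into 2.81% higher and 2.84% lower at 2-fold. On that scale 5 of the 101 genes passed 2-fold lower in Huh7, since MRPL54, MRPS35 and MRPL51 joined MRPL53 and MRPL10.

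**Figure D2:**
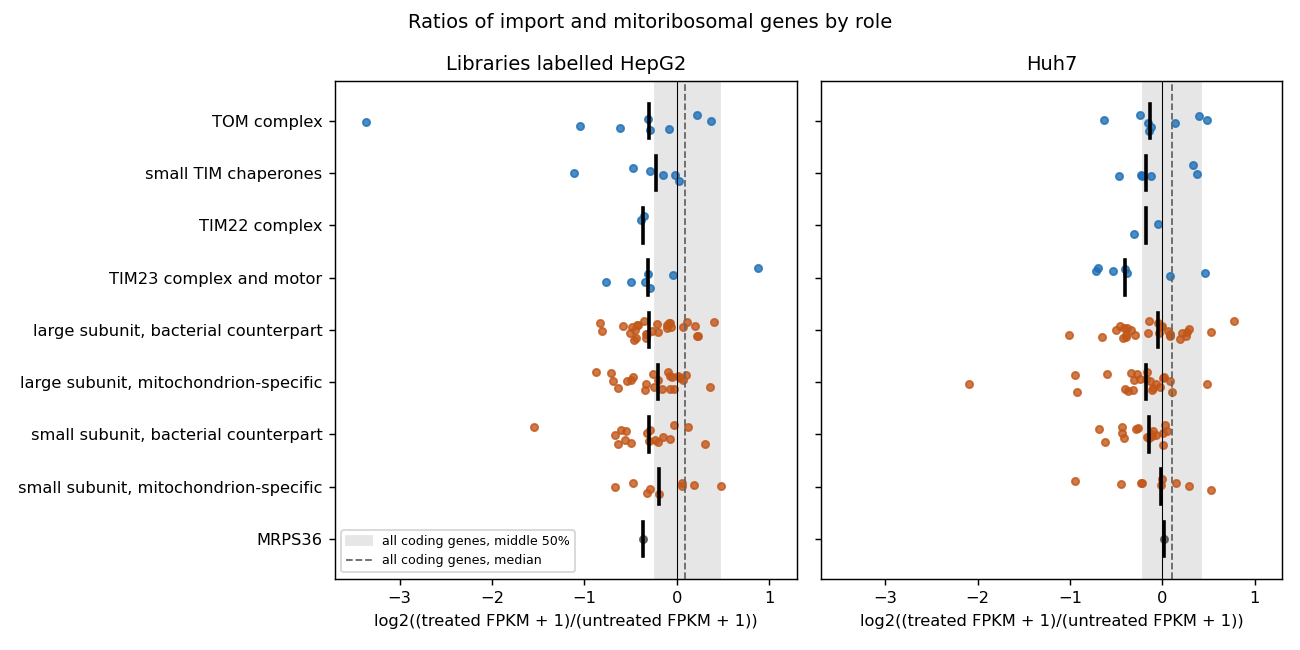
log2 ratio of treated to untreated FPKM (1 added to each) of 101 genes by role, in the libraries labelled HepG2 (left) and Huh7 (right), 1 point per gene. Black bars are the medians of each role, the dashed line is the median of all coding genes and the grey band their middle 50%. Every role median lies left of the dashed line in both lines.

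The TOM complex held the largest single difference. TOMM6, a small subunit that steadies the outer membrane pore (chr6:41787662-41789898), stood at 5.73 FPKM in the treated and 68.4 FPKM in the untreated library labelled HepG2, and at 39.2 FPKM in treated and 42.7 FPKM in untreated Huh7 cells. The treated library labelled HepG2 was thus the low one of the 4, and its log2 ratio was −3.37, a level 10.3-fold lower than in untreated cells. From inferred counts of 82 and 1082 fragments, the 95% exact binomial interval of the plain log2 FPKM ratio was −3.91 to −3.25, which covers counting error only. The Huh7 ratio was −0.12. In GENCODE 29 all exonic bases of TOMM6 (100%) also belong to AL365205.1, a same-strand gene for which no value was used here. PRICKLE4, a neighbour of TOMM6, stood at 0.875 FPKM in treated and 0.118 FPKM in untreated libraries labelled HepG2, while treated and untreated Huh7 cells had 0.212 and 0.0485 FPKM. The part of the overlapping gene in the TOMM6 difference was not tested.

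TOMM22, the central receptor that organises the TOM complex, was measured over a transcript that shares no exonic base with another gene. It stood at 16.3 FPKM in treated and 34.7 FPKM in untreated libraries labelled HepG2, and at 58.5 FPKM in treated and 69.2 FPKM in untreated Huh7 cells. Treated cells were the lower of each pair, with ratios of −1.04 and −0.24, and the counting interval of the first was −1.21 to −0.97. The initial receptors did not share this pattern in Huh7. TOMM70, which binds carrier precursors handed over by chaperones, stood at 29.7 FPKM in treated and 46.2 FPKM in untreated libraries labelled HepG2, against 42.5 FPKM in treated and 38.5 FPKM in untreated Huh7 cells. TOMM20, which recognises cleavable leaders, stood at 45.4 and 55.7 FPKM in treated and untreated libraries labelled HepG2, while treated and untreated Huh7 cells had 61.6 and 43.7 FPKM. Both receptors were lower in treated libraries labelled HepG2 and higher in treated Huh7 cells.

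The other small TOM subunits also went their own ways. TOMM7, which helps the complex assemble and disassemble and holds the kinase PINK1 at the outer membrane, stood at 114 FPKM in treated and 87.9 FPKM in untreated libraries labelled HepG2, while treated and untreated Huh7 cells had 88.2 and 66.8 FPKM. Treated cells were the higher of both pairs, with ratios of 0.37 and 0.40. TOMM5 had 105 FPKM in treated and 162 FPKM in untreated cells, against 55.6 and 58.8 FPKM in treated and untreated libraries labelled HepG2. TOMM34, a soluble co-chaperone of precursors, had ratios of 0.22 and −0.15, and TOMM40L, a pore paralogue, had −0.32 and −0.14, in the libraries labelled HepG2 and in Huh7. The pore subunit TOMM40 was not among the genes found by name, so the pore itself has no value here. The values of TOMM40L do not stand in for it.

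Between the membranes, the small TIM chaperones differed by less than 1.5-fold in either line, apart from TIMM8A. TIMM8A, which works with TIMM13 in the intermembrane space and is the gene of deafness-dystonia syndrome, stood at 7.09 FPKM in treated and 16.5 FPKM in untreated libraries labelled HepG2. In Huh7 it stood at 12.3 FPKM in treated and 14.5 FPKM in untreated cells, so that the treated library labelled HepG2 was the low one. Its ratios were −1.11, with a counting interval of −1.43 to −0.99 on the plain scale, and −0.23. Its partner TIMM13 had ratios of −0.02 and −0.23. TIMM9 and TIMM10, which form the main carrier-escorting ring, had ratios of −0.29 and −0.47 in the libraries labelled HepG2 and of 0.37 and −0.13 in Huh7. The counting interval of TIMM9 in the libraries labelled HepG2, −0.85 to 0.14, includes 0. TIMM10B had 0.02 and 0.33, and TIMM8B had −0.15 and −0.47, in the libraries labelled HepG2 and in Huh7. Both members of the TIM22 complex that were measured, the channel TIMM22 and its metazoan partner TIMM29, were lower in treated cells of both lines, with ratios between −0.38 and −0.05.

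In the TIM23 complex, the channel subunit TIMM23 and the receptor TIMM50 were lower and the motor anchor TIMM44 higher in treated cells of both lines. TIMM50, the receptor that takes precursors from the TOM complex, stood at 36.7 FPKM in treated and 63.0 FPKM in untreated libraries labelled HepG2, while treated and untreated Huh7 cells had 52.3 and 86.6 FPKM. Its ratios were −0.76 and −0.72. TIMM23, the channel subunit, stood at 79.4 FPKM in treated and 113 FPKM in untreated libraries labelled HepG2, while treated and untreated Huh7 cells had 48.2 and 78.9 FPKM. TIMM23B, a near-identical copy of it, was listed at 1.14 and 1.61 FPKM in treated and untreated libraries labelled HepG2, while treated and untreated Huh7 cells had 3.05 and 4.87 FPKM, so how reads were split between the copies is uncertain.

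TIMM44, which tethers the mitochondrial Hsp70 motor to the inner membrane channel, was the only one of the 101 genes at least 1.5-fold higher in treated libraries labelled HepG2. It stood at 35.8 FPKM there and at 19.1 FPKM in untreated cells, and at 49.2 and 35.5 FPKM in treated and untreated Huh7 cells, with ratios of 0.87 and 0.46. The Hsp70 itself, HSPA9, stood at 151 FPKM in treated and 93.4 FPKM in untreated libraries labelled HepG2, while treated and untreated Huh7 cells had 71.0 and 67.1 FPKM. TIMM21, which links the complex to respiratory chain assembly, had ratios of −0.31 and −0.39, and the channel paralogues TIMM17A and TIMM17B had −0.34 and −0.04 in the libraries labelled HepG2 and −0.41 and 0.09 in Huh7.

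**Figure D3:**
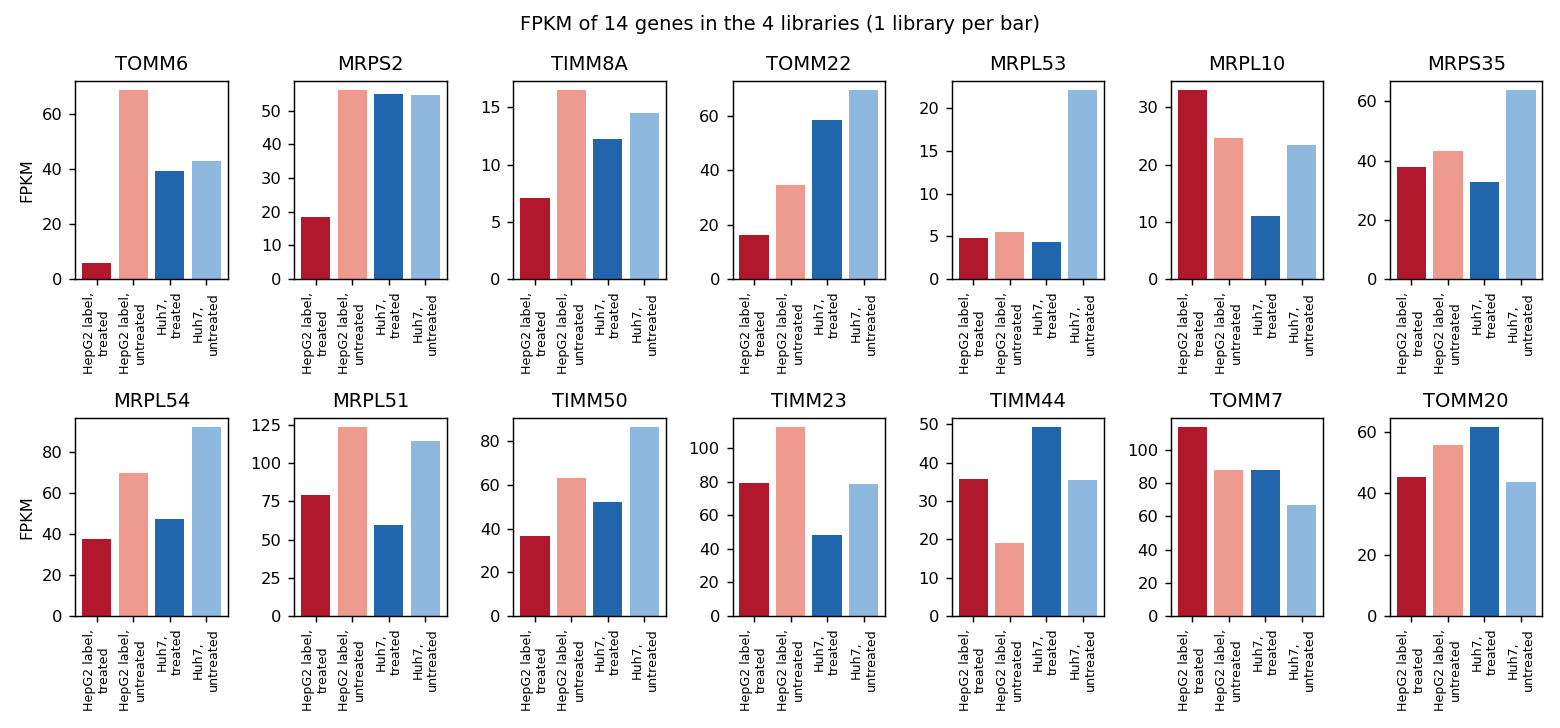
FPKM of 14 import and mitoribosomal genes in each of the 4 libraries, 1 bar per library, with treated left of untreated in each line and an axis from 0 for every gene. TOMM6, MRPS2, TIMM8A and TOMM22 are lowest in the treated library labelled HepG2, MRPL10 is lowest in treated Huh7 cells, MRPL53 is high in untreated Huh7 cells only, and TIMM44 and TOMM7 are higher in treated cells of both lines.

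The mitochondrial ribosome was represented by 77 proteins that passed 1 FPKM in each line, and 1 more gene, MRPS36, carries the name although its product is a subunit of the oxoglutarate dehydrogenase complex. In the libraries labelled HepG2, 60 of the 77 were below 0 with a median of −0.26. In Huh7, 54 were below 0 with a median of −0.14. Proteins with a bacterial counterpart and proteins found only in mitochondria had medians in the large subunit of −0.30 and −0.21 for the HepG2 label and −0.04 and −0.17 for Huh7, the Huh7 pair being −0.15 and −0.28 with size factors. In the small subunit the medians were −0.31 and −0.19 in the libraries labelled HepG2 and −0.15 and −0.01 in Huh7, the Huh7 pair being −0.26 and −0.13 with size factors. None of these differences between classes was tested.

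In the small subunit MRPS2, the counterpart of bacterial S2 (chr9:135499984-135504673), stood at 18.5 FPKM in treated and 55.9 FPKM in untreated libraries labelled HepG2. In Huh7 it stood at 54.9 FPKM in treated and 54.5 FPKM in untreated cells, so 3 libraries lay close together and the treated library labelled HepG2 lay below them. Its ratios were −1.55 and 0.01, and 14.4% of its exonic bases are shared with other genes, all on the opposite strand. MRPS35, a protein of the small subunit without a bacterial counterpart, showed the reverse order of lines. It stood at 37.8 FPKM in treated and 43.2 FPKM in untreated libraries labelled HepG2, and at 32.7 FPKM in treated and 63.7 FPKM in untreated Huh7 cells. MRPS34, one of the 3 most abundant of the 102 genes, stood at 118 and 189 FPKM in treated and untreated libraries labelled HepG2, while treated and untreated Huh7 cells had 120 and 164 FPKM.

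Some small subunit genes were higher in treated cells of 1 line or of both. MRPS27, a pentatricopeptide repeat protein, stood at 36.1 FPKM in treated and 25.7 FPKM in untreated libraries labelled HepG2, while treated and untreated Huh7 cells had 35.5 and 41.7 FPKM. MRPS31 stood at 7.73 FPKM in treated and 5.07 FPKM in untreated Huh7 cells, while MRPS25 had 8.07 FPKM in treated and 6.43 FPKM in untreated Huh7 cells. Both had ratios of 0.06 in the libraries labelled HepG2. MRPS30, a large subunit protein despite its name, was nearly level at 127 and 126 FPKM in treated and untreated libraries labelled HepG2 and at 114 FPKM in both Huh7 libraries.

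In the large subunit the largest difference in Huh7 was that of MRPL53, a protein without a bacterial counterpart (chr2:74471982-74472687). It stood at 4.86 FPKM in treated and 5.55 FPKM in untreated libraries labelled HepG2, and at 4.39 FPKM in treated and 22.0 FPKM in untreated Huh7 cells. Untreated Huh7 cells were the high library and the other 3 lay together, with ratios of −0.16 and −2.10. The inferred counts in Huh7 were 78 and 450 fragments in treated and untreated cells, with a counting interval of −2.69 to −1.97 for the plain log2 ratio. Of its exonic bases 45.2% are shared with CCDC142 on the same strand. CCDC142 stood at 8.33 FPKM in treated and 2.79 FPKM in untreated Huh7 cells, and at 9.77 and 8.12 FPKM in treated and untreated libraries labelled HepG2, and its part in the MRPL53 values was not tested.

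MRPL10, which anchors the factor-binding stalk of the large subunit (chr17:47823272-47831541), shares no exonic base with another gene. It stood at 32.9 FPKM in treated and 24.6 FPKM in untreated libraries labelled HepG2, and at 11.1 FPKM in treated and 23.4 FPKM in untreated Huh7 cells. The untreated libraries were close to each other and the treated ones lay on either side of them, with ratios of 0.41 and −1.02. The difference between the lines was 1.42 on the log2 scale, and it has no test with 1 library per group.

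MRPL54, MRPL51 and TIMM50 were the 3 genes at least 1.5-fold lower in treated cells of both lines, where 1.91% of 10758 coding genes measured in both lines were so. MRPL54, a mitochondrion-specific protein (chr19:3762682-3768575), stood at 37.7 FPKM in treated and 69.7 FPKM in untreated libraries labelled HepG2, and at 47.4 FPKM in treated and 92.0 FPKM in untreated Huh7 cells. Both treated libraries were below both untreated ones, with ratios of −0.87 and −0.94 and counting intervals of −1.05 to −0.73 and −1.10 to −0.82. MRPL51, also mitochondrion-specific, stood at 79.4 and 124 FPKM in treated and untreated libraries labelled HepG2, while treated and untreated Huh7 cells had 59.6 and 114 FPKM. Of its exonic bases 31.3% are shared with NCAPD2 on the opposite strand, which stood at 129 and 155 FPKM in treated and untreated libraries labelled HepG2, while treated and untreated Huh7 cells had 91.7 and 86.4 FPKM.

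Among other large subunit genes, MRPL27, a counterpart of bacterial L27, which reaches toward the peptidyl transferase centre, had ratios of −0.84 in the libraries labelled HepG2 and −0.46 in Huh7. MRPL32, whose maturation by the m-AAA protease is known from yeast and mouse, had −0.81 and −0.40. MRPL50 stood at 3.31 FPKM in treated and 6.05 FPKM in untreated libraries labelled HepG2, but at 6.72 and 6.28 FPKM in treated and untreated Huh7 cells. On the other side stood MRPL30, the only one of the 101 genes at least 1.5-fold higher in treated Huh7 cells, with 14.9 FPKM in treated and 8.30 FPKM in untreated cells. In the libraries labelled HepG2 it had 10.8 and 11.4 FPKM in treated and untreated cells. Of its exonic bases 19.5% are shared with AC079447.1 and 13.1% with AC092587.1, both on the same strand. AC092587.1 stood at 1.92 FPKM in treated and 0.340 FPKM in untreated Huh7 cells, and at 0.367 FPKM in treated and 0.137 FPKM in untreated libraries labelled HepG2, and its part in the MRPL30 values was not tested. MRPL24, MRPL38 and MRPL2 had ratios above 0 in both lines, up to 0.53 for MRPL24 in Huh7, although with size factors MRPL38 was below 0 in the libraries labelled HepG2. MRPL41 stood at 113 and 88.2 FPKM in treated and untreated libraries labelled HepG2, while treated and untreated Huh7 cells had 172 and 193 FPKM.

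Across the lines, 60 of the 101 genes (59.4%) had a ratio below 0 in both, against 23.3% of the 10758 coding genes measured in both. A ratio above 0 in both was found for 11 genes (10.9%), against 38.5%. The remainder were lower in treated libraries labelled HepG2 and higher in treated Huh7 cells (20 genes) or the other way round (10 genes). These are 19.8% and 9.90% of the 101 genes, against 21.0% and 17.2% of coding genes. Of the 23 import genes measured, 15 were below 0 in both lines, and of the 77 mitoribosomal genes 45 were. With size factors 72 genes were below 0 in both lines and 6 above, against 29.7% and 31.3% of coding genes. Across the 101 genes the ratios of the 2 lines had a Pearson r of 0.16 and a Spearman rho of 0.27, given as a description over genes of the same 4 libraries. Without TOMM6 these were 0.22 and 0.28, and over the 10758 coding genes they were 0.26 and 0.29.

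**Figure D4:**
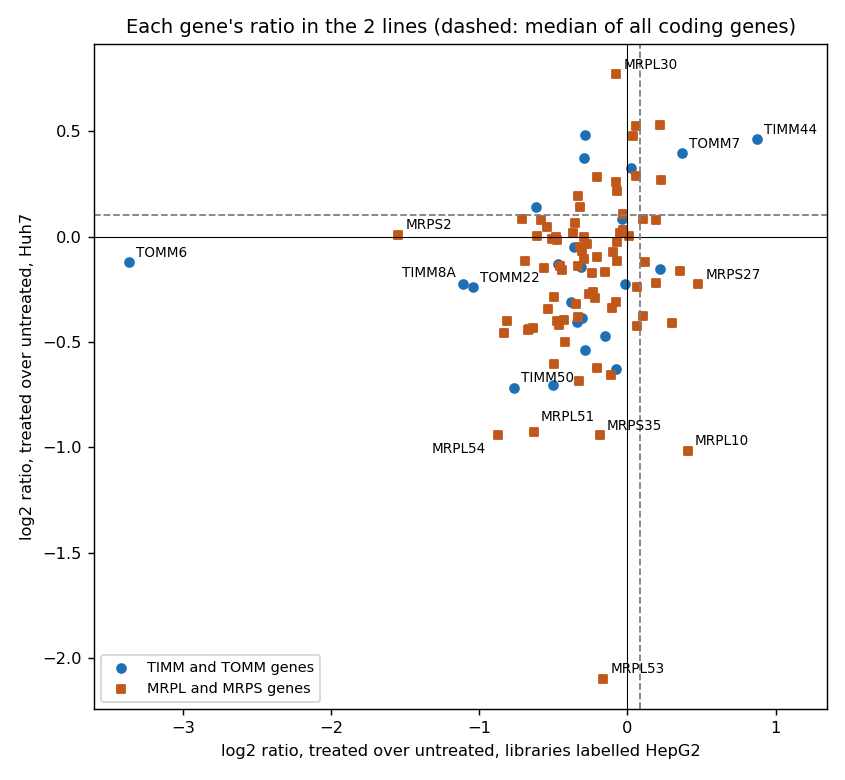
log2 ratio of treated to untreated FPKM in the libraries labelled HepG2 (horizontal) and in Huh7 (vertical), 1 point per gene, for TIMM and TOMM genes (circles) and MRPL and MRPS genes (squares), with dashed lines at the medians of all coding genes. The lower left part holds 60 of 101 genes, TOMM6 and MRPS2 lie far left near a Huh7 ratio of 0, and MRPL53 and MRPL10 lie low with small or positive ratios in the libraries labelled HepG2.

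The only test across libraries was limma on log2(FPKM + 1) of all 4, with cell line as a block and 1 residual degree of freedom. By its Benjamini-Hochberg adjusted p, 0 of the 101 genes and 0 of 13030 coding genes (0%) passed 0.05. At an unadjusted p under 0.05 there were 14 of the 101, 13 of them lower in treated cells, beside 11.8% of coding genes. The lowest adjusted p among the 101 was 0.246 in limma, for MRPL54. Its mean log2 difference was −0.91 ± 0.21 (moderated SE), with a lower level in 2 of 2 lines. The moderated SE of limma draws on the variance of all genes, so the ± values are not the spread of each gene alone. By limma, MRPL51 followed at −0.78 ± 0.21 with an adjusted p of 0.268, then TIMM50 at −0.74 ± 0.21 with an adjusted p of 0.287. TIMM44, the 1 gene of the 14 on the higher side, had a limma difference of 0.67 ± 0.23 and an adjusted p of 0.347. TOMM6 had −1.74 ± 0.63 in limma with an adjusted p of 0.353, from ratios of −3.37 and −0.12. Whether the lines differ in their response has no residual degrees of freedom and was not tested.

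The genes with and without the promoter letters had similar medians where GABPA was concerned. The medians of the 41 genes with the GABPA letters and the 50 without were −0.29 and −0.28 in the libraries labelled HepG2, and −0.13 and −0.15 in Huh7. The 13 genes with the NRF1 letters had medians of −0.08 and 0.09 in the 2 lines, and the 78 without had −0.29 and −0.16. Of those 13, 3 were below 0 in both lines, against 51 of the 78. The 15 genes with the YY1 letters had medians of −0.08 and −0.12, and the 76 without had −0.29 and −0.15. These differences carry no test.

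Neighbouring gene groups set the scale. Nuclear genes of the respiratory chain, whose products are imported and joined to those the mitochondrial ribosome makes, had medians of −0.23 (80 measured) in the libraries labelled HepG2 and −0.29 (79 measured) in Huh7, with 80.0% and 82.3% below 0. On the size-factor scale the respiratory chain medians were −0.29 and −0.40. Cytosolic ribosomal proteins had medians of −0.07 and −0.10, or −0.13 and −0.21 with size factors, a scale on which the 101 import and mitoribosomal genes had −0.34 and −0.26. The 24 import partners without a TIMM or TOMM name had medians of 0.16 and 0.04, and 19 and 14 of them were above 0, though with size factors the Huh7 median was −0.08. Among these, ROMO1 stood at 139 FPKM in treated and 70.6 FPKM in untreated libraries labelled HepG2, while treated and untreated Huh7 cells had 73.4 and 110 FPKM. GRPEL2, a nucleotide exchange factor of the matrix Hsp70, stood at 13.8 FPKM in treated and 5.11 FPKM in untreated Huh7 cells, and at 5.59 and 3.97 FPKM in treated and untreated libraries labelled HepG2. It was the only one of the 24 past 2-fold in either line.

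The 5 mitoribosomal proteins without an MRP name had medians of −0.20 and −0.00, or −0.25 and −0.12 with size factors, with 0 past 2-fold. The 12 mitochondrial translation factors had medians of 0.07 and 0.12, or 0.01 and 0.0093 with size factors. MTIF2, an initiation factor, was the 1 past 2-fold, at 18.4 FPKM in treated and 8.22 FPKM in untreated Huh7 cells. TUFM, the elongation factor, stood at 125 FPKM in treated and 199 FPKM in untreated libraries labelled HepG2, against 146 and 121 FPKM in treated and untreated Huh7 cells. The 23 assembly factors of the mitoribosome had medians of −0.13 and 0.30, or −0.18 and 0.19 with size factors, with METTL15, an rRNA methyltransferase, at 6.46 FPKM in treated and 2.48 FPKM in untreated Huh7 cells. The 5 genes of mitochondrial transcription had medians of −0.23 and 0.08, the second being −0.0028 with size factors.

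Chaperones and proteases that receive imported proteins had medians of −0.19 and 0.17 over 13 genes, or −0.25 and 0.06 with size factors. LONP1, the main matrix protease, stood at 85.6 FPKM in treated and 27.0 FPKM in untreated libraries labelled HepG2, while treated and untreated Huh7 cells had 77.4 and 50.4 FPKM. The 14 regulators of mitochondrial biogenesis and stress had medians of 0.18 and 0.22, or 0.13 and 0.12 with size factors, with 5 below 0 in each line. Among them DDIT3, a stress transcription factor, had a ratio of 2.27 in the libraries labelled HepG2 and 0.20 in Huh7. ATF4 had 1.41 and 0.61, and MYC had 0.15 and 1.17. The GABPA gene itself stood at 2.54 FPKM in treated and 5.26 FPKM in untreated libraries labelled HepG2, while treated and untreated Huh7 cells had 3.41 and 2.05 FPKM. The NRF1 gene had ratios of 0.29 in the libraries labelled HepG2 and 0.33 in Huh7. The YY1 gene had −0.19 and −0.26. The part of these factors in the ratios was not tested. The 13 messages that the mitochondrial ribosome translates had a median of −0.56 in the libraries labelled HepG2 and 0.37 in Huh7, with 12 of 13 below 0 in the first and 12 of 13 above 0 in Huh7.

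Before treatment single subunits of both machines differed between the 2 lines. A smaller share of these genes than of all coding genes passed 2-fold, in either direction. Untreated Huh7 cells were compared with untreated libraries labelled HepG2, which also serve as the untreated side of the treatment ratios. Of the 101 genes, 8 were at least 2-fold higher in Huh7 (background 17.5%) and 11 at least 2-fold lower (background 17.2%), with a median log2 ratio of −0.20, against −0.06 over 12446 coding genes. A ratio below 0 was found for 65.3% of the 101 genes, beside 52.5% of coding genes. With size factors 10 were at least 2-fold higher and 9 lower, beside 19.1% and 15.5% of coding genes. On that scale the median was −0.10 against 0.04 over all coding genes, and 57.4% of the 101 genes were below 0. MRPL23 stood at 126 FPKM in untreated Huh7 cells and 28.2 FPKM in the untreated library labelled HepG2. TOMM5 stood at 162 FPKM in Huh7 and 58.8 FPKM in the library labelled HepG2. The channel paralogues of the TIM23 complex stood the other way round to each other: TIMM17B had 163 FPKM in Huh7 and 59.1 FPKM in the library labelled HepG2, while TIMM17A had 19.9 FPKM in Huh7 and 56.7 FPKM in the library labelled HepG2.

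The other genes at least 2-fold higher in untreated Huh7 cells were MRPL53, MRPL52, MRPL22, TIMM23B and MRPL41. The 11 lower in Huh7 were MRPL36, TIMM17A, MRPS22, MRPS21, TOMM40L, MRPS9, MRPL39, MRPL15, MRPS18B, MRPS6 and MRPL3. MRPL36 stood at 4.04 FPKM in untreated Huh7 cells and 16.1 FPKM in the untreated library labelled HepG2. Log2 levels of the 102 genes in treated and untreated cells had a Pearson r of 0.96 in Huh7 and 0.93 in the libraries labelled HepG2. Between the untreated lines the Pearson r was lower, at 0.82. By rank, the Spearman rho was 0.96, 0.90 and 0.82 in the same order.

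**Figure D5:**
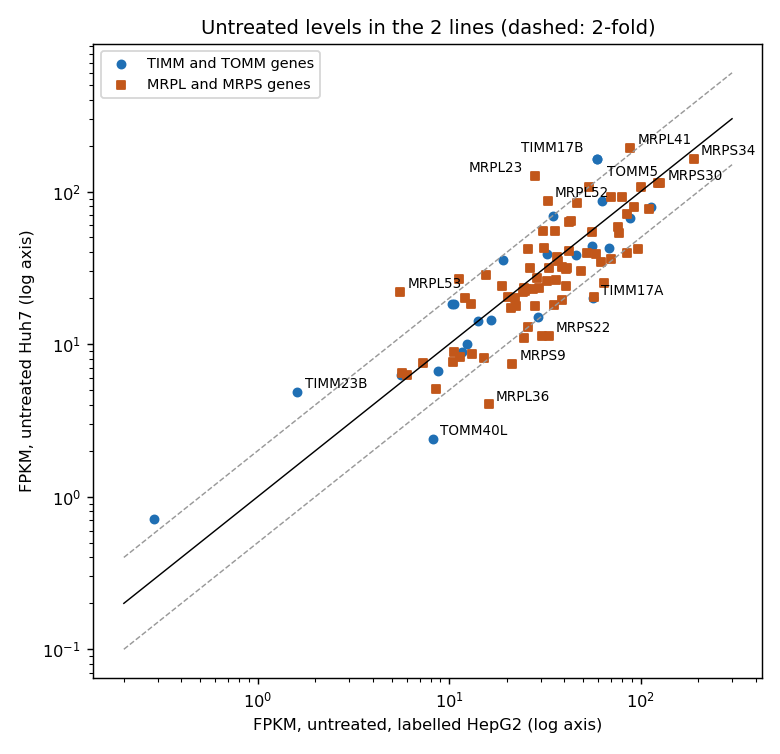
FPKM of the 102 genes in untreated Huh7 cells (vertical) against the untreated library labelled HepG2 (horizontal), both on log axes, with the line of equality and dashed lines at 2-fold. MRPL23, MRPL53, TOMM5 and TIMM17B lie above the band, and MRPL36, TOMM40L, TIMM17A and MRPS22 below it.

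The authors' deposited table of Gene Ontology terms for the libraries labelled HepG2 rests on 3213 of 22135 genes (14.5%) and lists 4 of the 102 genes (3.92%), namely MRPL54, MRPS2, TIMM8A and TOMM6. The authors' deposited table for Huh7 rests on 2438 genes (11.0%) and lists 6 (5.88%), namely MRPL10, MRPL42, MRPL53, MRPL54, MRPS35 and TIMM23B. MRPL54 is in both lists of the authors' deposited tables. For the term mitochondrial ribosome the authors' deposited table gives 2 listed of 97 genes with a corrected p of 1 in the libraries labelled HepG2, and 6 of 97 with a corrected p of 1 in Huh7. MRPL42, which the authors listed for Huh7, stood at 6.96 FPKM in treated and 7.61 FPKM in untreated Huh7 cells in the deposited FPKM table.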

How the data were processed

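Total RNA of 4 cultures was extracted with Trizol and made into Illumina TruSeq libraries, per the labels' protocols. The authors deposited FPKM per coding gene and per long noncoding transcript, 1 column per library, per the file headers, and enrichment tables with p-values and corrected p-values for their own gene lists. Per the submitters' processing notes the tools were HISAT2, Bowtie2 (2.2.8), Cuffdiff (2.1.1), StringTie (1.3.1), GATK, SAMtools (0.1.18) and Picard (1.96), whose roles are not stated. The build, the annotation, the strandedness and the choice of the authors' lists are not stated either.

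Ratios were log2((treated FPKM + 1)/(untreated FPKM + 1)) for genes reaching 1 FPKM in 1 or both of the libraries compared, with calls at 2-fold and, as an alternative, 1.5-fold. A count model cannot be used on FPKM. Depth was estimated from the FPKM step of 1 fragment in genes with 1 transcript, and the 95% exact binomial intervals of plain FPKM ratios use the median coding transcript length in GENCODE 29 and cover counting error only. limma (version 3.58.1, under R 4.3.3) was fitted, using a mean-variance trend, over 13030 genes with cell line as a block, the pairing by line coming from the labels, and was tested on simulated data. With 1 residual degree of freedom it asks whether both lines moved alike. Nothing says that repeat cultures were made. Exonic overlap came from GENCODE 29 and promoters from RefSeq (GRCh38.p14). The analysis used Python 3.11.15, pandas 2.3.3 and scipy 1.17.1.

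The genes and lists were chosen with earlier results of these data known. Genes were named by rule: all import genes, per line the 5 highest and 5 lowest mitoribosomal ratios at 5 FPKM or more, all past 2-fold, the 5 largest differences between lines in each direction, the 3 most and least abundant, and up to 3 of each other list. Genes named for the untreated lines, for the unadjusted limma p and in the authors' lists were chosen after their values were seen. So were HSPA9, TUFM, GABPA, NRF1 and YY1. Alternatives were another pseudocount, other filters, rescaling, size factors, another fold, and limma without block or trend. A further alternative left out genes that share over 10% of their exonic bases with another gene.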

Additional observations from a re-analysis of the deposited data

Results flagged for a closer look

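Genes with ratios of opposite sign and at least 1.2-fold in each line were MRPL10, MRPS10, TIMM9 and TOMM20. The share of all coding genes that meet this rule was not counted. Without a size limit, 21.0% of coding genes were lower in treated libraries labelled HepG2 and higher in treated Huh7 cells, and 17.2% the reverse. For the import and mitoribosomal genes these shares were 19.8% and 9.90%. MRPL10 had a log2 ratio of treated to untreated of 0.41 in the libraries labelled HepG2 and −1.02 in Huh7. MRPS10, a small subunit protein, had 0.30 and −0.41. TOMM20 had −0.29 and 0.48. TIMM9 had −0.29 and 0.37, but its inferred 60 and 85 fragments in treated and untreated libraries labelled HepG2 gave a counting interval of −0.85 to 0.14, which includes 0. The 13 mitochondrially encoded messages had a median of −0.56 in the libraries labelled HepG2 and 0.37 in Huh7. With 1 library per group none of these differences was tested.

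Of 14 long noncoding transcripts in the deposited table that are named after import or mitoribosomal genes, 3 reached 1 FPKM in some library. MRPL23-AS1, an antisense transcript, stood at 1.31 FPKM in treated and 0.371 FPKM in untreated Huh7 cells. MRPL34-OT1 stood at 1.65 FPKM in treated and 0.871 FPKM in untreated libraries labelled HepG2, and at 1.87 FPKM in treated and 1.63 FPKM in untreated Huh7 cells. MRPL43-OT2 stood at 0.025 FPKM in treated and 1.08 FPKM in untreated Huh7 cells.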

How the results depend on the processing

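In the libraries labelled HepG2 the median was −0.34 with size factors. At 1.5-fold 1 gene was higher and 16 were lower, and without the 34 genes that share over 10% of their exonic bases with another gene 2 were at least 2-fold lower. In Huh7 size factors gave 5 genes at least 2-fold lower, a median of −0.26 and 83.2% below 0, a 1.5-fold call gave 1 higher and 12 lower, and leaving out the sharing genes gave 1 lower. Between the untreated lines a 1.5-fold call gave 19 of the 101 genes higher and 23 lower in Huh7, beside 26.2% and 29.2% of coding genes. Under limma the genes passing an adjusted p of 0.05 numbered 1 with a 5 FPKM filter, 1 after rescaling and 3 with size factors, none of them an import or mitoribosomal gene. Without the cell line block limma called 0 genes, and 1 of the 101 had an unadjusted p under 0.05. Of 88 ratios of named genes, 0 changed sign with a pseudocount of 0.1, 4 after rescaling (TIMM13 and TIMM17B in the libraries labelled HepG2, MRPS2 and MRPS30 in Huh7) and 7 with size factors (MRPL38, MRPS30 and TIMM10B in the libraries labelled HepG2, MRPL50, MRPS2, MRPS30 and TIMM17B in Huh7), while 14 moved beyond their counting interval with size factors. No paired analysis was possible because each line has 1 library per group, apart from the block by line in limma. No replicate could be left out for the same reason. The libraries labelled HepG2 lack hepatocyte markers, and 34 of the 102 genes share over 10% of their exonic bases with others. Differences between genes of low FPKM rest on few fragments. The cause of the moves was not tested.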
